A study of Homo sapiens with 6 samples.

Results

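ATF4 and the regulators of the integrated stress response were followed through nascent transcription in T47D cells after 5 h of AKT inhibition or AKT degradation. The genes were taken by name from a list of 10 known members of this response, and 9 of them had a row in a deposited count table of 20333 gene intervals: ATF4, DDIT3, TRIB3, CHAC1, ASNS, PPP1R15A, CEBPB, CEBPG and ATF5. VLDLR was not analysed here. All 9 passed the minimum of 10 counts in some library, and their lowest count was 106. The assay was PRO-seq, a nuclear run-on in which polymerases caught in mid-transcription add labelled bases. Reads in a gene thus count engaged polymerases, paused or moving, and not mature RNA. T47D is an established luminal breast cancer line, labelled estrogen receptor positive and HER2 negative, and was grown in growth factor-complete medium. The 3 arms were the solvent DMSO, 500 nM GDC0068, which inhibits the catalytic activity of AKT, and 100 nM INY-05-040, which leads to degradation of AKT and is labelled Degrader. Each arm had 2 libraries, and the submitters state 2 independent experiments. The drug doses differ by design: they were chosen for comparable suppression of signalling below AKT.

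The integrated stress response is a control of protein synthesis. Kinases that sense amino acid shortage, misfolded protein in the endoplasmic reticulum, double-stranded RNA or haem deficiency phosphorylate the translation factor eIF2, which lowers general translation and favours translation of the ATF4 messenger. ATF4 is a basic leucine zipper (bZIP) transcription factor that pairs with C/EBP proteins at C/EBP-ATF response elements (CARE) and raises genes for amino acid uptake and synthesis and for recovery of translation. ATF4 itself is controlled mainly in translation, through eIF2 and also through growth signals below AKT and mTORC1, and a run-on assay does not read the amount of ATF4 protein.

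Library totals ranged from 25371819 to 32192576 counts and the median count per gene from 616 to 761. Replicates of an arm correlated across genes with r of 0.995, 0.995 and 0.994 on the log2 scale, but differed by more than sampling noise, with chi-square values per degree of freedom from 5.01 to 6.95. Of the 20333 intervals, 19902 were tested with edgeR's quasi-likelihood test in one fit of all 6 libraries, and calls were made at an adjusted p under 0.05 (Benjamini-Hochberg, over these genes). Levels are in CPM, counts scaled to the size of each library, with SD over the 2 libraries of an arm. All 10 luminal markers examined, among them ESR1, GATA3 and KRT19, had counts in every arm, and their summed level lay between 5489 and 5860 CPM in every library. TFF1 was the lowest of them, with arm means from 4.41 to 5.82 CPM. Within the sum PGR stood at 806 CPM in DMSO and 1017 under Degrader, and ESR1 at 1201 and 1096. Of 12 markers of basal, mesenchymal, endothelial and blood cells, 2 were measured: ZEB1 stood at 5.51 to 5.64 CPM in the 3 arms, and CD68, a lysosomal protein gene, had arm means of 80.4 (DMSO), 65.1 (GDC0068) and 59.7 CPM (Degrader), called lower under both drugs (edgeR adjusted p of 0.0487 and 0.00361). The other 10 were not analysed here, and the part of CD68 in the results was not tested. The differences between replicates 1 and 2 correlated weakly between arms across genes (r of 0.18 to 0.22). Values of a fit with the replicate number as a block are therefore given beside the member calls and the list counts.

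The upstream sequences of 5 genes are shown: those of the 3 genes called under Degrader, and those of ASNS and PPP1R15A, which with CHAC1 held the motif matches. RefSeq (GRCh38.p14) gave a start region for all 9 genes, and the 250 bases upstream of the RefSeq start nearest to the deposited start were searched on both strands. For CHAC1 (chr15:40953221-40953470, plus strand), ATF4, CEBPB (chr20:50190580-50190829, plus strand), ATF5 and PPP1R15A (chr19:48872171-48872420, plus strand) the starts coincided. For DDIT3 they lay 3 bases apart, for ASNS (chr7:97872409-97872658, minus strand) and CEBPG (chr19:33373459-33373708, plus strand) 19, and for TRIB3 261, so that its window lies inside the deposited interval. Capitals mark the CARE core TGATGNAA or its reverse complement in CHAC1 and ASNS, and the ATF and CREB site TGACGTNA in PPP1R15A.
CHAC1: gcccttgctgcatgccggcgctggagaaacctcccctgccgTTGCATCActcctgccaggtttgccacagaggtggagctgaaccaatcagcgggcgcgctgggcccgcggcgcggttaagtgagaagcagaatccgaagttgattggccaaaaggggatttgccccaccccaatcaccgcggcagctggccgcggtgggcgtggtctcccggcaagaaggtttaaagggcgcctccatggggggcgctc
ASNS: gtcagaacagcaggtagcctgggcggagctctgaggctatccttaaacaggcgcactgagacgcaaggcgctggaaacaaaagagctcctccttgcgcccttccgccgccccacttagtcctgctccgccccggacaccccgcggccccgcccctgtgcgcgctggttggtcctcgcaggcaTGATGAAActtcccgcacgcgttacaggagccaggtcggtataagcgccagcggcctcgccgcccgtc
CEBPB: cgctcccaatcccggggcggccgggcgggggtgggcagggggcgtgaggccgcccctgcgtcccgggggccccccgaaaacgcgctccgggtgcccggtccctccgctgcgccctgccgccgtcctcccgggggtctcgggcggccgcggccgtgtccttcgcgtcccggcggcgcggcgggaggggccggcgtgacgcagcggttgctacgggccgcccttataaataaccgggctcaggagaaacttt
CEBPG: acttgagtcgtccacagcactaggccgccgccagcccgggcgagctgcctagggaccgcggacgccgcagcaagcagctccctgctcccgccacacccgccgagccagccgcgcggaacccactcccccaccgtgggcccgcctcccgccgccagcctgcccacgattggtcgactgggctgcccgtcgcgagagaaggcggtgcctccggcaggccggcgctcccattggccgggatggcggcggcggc
PPP1R15A: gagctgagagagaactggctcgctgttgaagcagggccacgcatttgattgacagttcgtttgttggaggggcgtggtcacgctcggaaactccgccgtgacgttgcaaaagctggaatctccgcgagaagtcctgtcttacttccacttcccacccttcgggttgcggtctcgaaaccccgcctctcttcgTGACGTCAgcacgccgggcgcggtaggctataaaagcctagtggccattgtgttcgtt
The CARE core was found in 2 of the 9 windows, at 209 to 202 bases before the start in CHAC1 and at 68 to 61 bases before it in ASNS. It was found in 3.14% of 35116 RefSeq windows of the same length. The ATF and CREB site was found in 1 of the 9, as the palindrome TGACGTCA 58 to 51 bases before the start of PPP1R15A, and in 2.67% of all windows. The FOXO motif TGTTTAC (2.98% of all windows) and the endoplasmic reticulum stress element known as ERSE (0.074%) were found in none of the 9. A match describes these letters only.

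ATF4 and DDIT3, the main transcription factors of the response, showed small differences between the arms, none of them called without the block. ATF4 (ENSG00000128272, chromosome 22, 39520562 to 39522685, plus strand) stood at 61.0 and 65.8 CPM in the DMSO libraries, 64.7 and 68.2 in those of GDC0068, and 55.2 and 60.4 in those of Degrader. Both Degrader libraries were the lowest of the 6, while the GDC0068 and DMSO libraries overlapped. Its log2 fold change was -0.13 under Degrader (95% interval -0.27 to 0.01, edgeR adjusted p = 0.194) and 0.07 under GDC0068 (-0.07 to 0.21, edgeR adjusted p = 0.594). With the replicate block the Degrader value of -0.13 was called (edgeR adjusted p = 0.0273), and without Degrader replicate 1 it was -0.07. The ATF4 value under GDC0068 was 0.010 without DMSO replicate 1. DDIT3, which encodes CHOP, a C/EBP family factor raised by ATF4 in prolonged stress, stood at 38.9 and 40.8 CPM in the DMSO libraries, 39.5 and 41.1 in those of GDC0068, and 37.6 and 38.9 in those of Degrader. The DMSO libraries overlapped those of both drugs. Its log2 fold changes of -0.06 under Degrader (95% interval -0.20 to 0.08) and 0.02 under GDC0068 (-0.12 to 0.15) were not called (edgeR adjusted p of 0.591 and 0.924), with or without the block. With 1 library left out, the Degrader value of DDIT3 ranged from -0.092 to -0.028. The DDIT3 interval (ENSG00000175197, chromosome 12, 57516593 to 57520511, minus strand) contains MIR616 on its own strand and overlaps MARS1 on the other strand. The use of strand in the counting is not stated, and MARS1 was itself called lower under both drugs, so how far its reads enter the DDIT3 count was not tested.

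CEBPB and CEBPG, which encode C/EBP partners of ATF4, fell under Degrader to 0.75 and 0.756 of the DMSO level. Neither was called under GDC0068, where CEBPG had a value of -0.32 and CEBPB of -0.10 on the log2 scale. CEBPB (ENSG00000172216, chromosome 20, 50190830 to 50192668, plus strand), a bZIP factor that dimerises with ATF4, stood at 48.7 and 43.8 CPM in the DMSO libraries, 47 and 39.8 in those of GDC0068, and 36.4 and 33.0 in those of Degrader. The Degrader libraries lay below the other 4, and the GDC0068 libraries overlapped those of DMSO. Its log2 fold change under Degrader was -0.42 (SE 0.0881, edgeR adjusted p = 0.00943). Between libraries of the same number it was -0.42 for replicate 1 and -0.41 for replicate 2. Under GDC0068 it was -0.10 (95% interval -0.29 to 0.09, edgeR adjusted p = 0.588). The Degrader call was lost without DMSO replicate 1 (-0.33, edgeR adjusted p = 0.0987) and without Degrader replicate 2 (-0.35, edgeR adjusted p = 0.109). The antisense gene CEBPB-AS1, which overlaps this interval, had a log2 fold change of -0.10 under Degrader (edgeR adjusted p = 0.580).

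CEBPG (ENSG00000153879, chromosome 19, 33373728 to 33382686, plus strand), which lacks an activation domain of its own and pairs with ATF4 at amino acid and redox genes, stood at 21.6 and 22.7 CPM in the DMSO libraries, 17.6 and 17.8 in those of GDC0068, and 16.1 and 17.4 in those of Degrader. All 4 drug libraries lay below both DMSO libraries, and both Degrader libraries lay just below those of GDC0068. The log2 fold change was -0.40 under Degrader (SE 0.0895, edgeR adjusted p = 0.0115). Under GDC0068 it was -0.32 (SE 0.0894, edgeR adjusted p = 0.0689), which was not called, but with the replicate block -0.33 was (edgeR adjusted p = 0.00668). The Degrader call was lost without DMSO replicate 1 (edgeR adjusted p = 0.0533), DMSO replicate 2 (0.0693) or Degrader replicate 1 (0.0873), with log2 fold changes of -0.44, -0.37 and -0.35.

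ATF5 and TRIB3 showed smaller differences, none of them called without the block. ATF5 (ENSG00000169136, chromosome 19, 49929205 to 49933935, plus strand) is a bZIP factor close to ATF4 that is also tied to mitochondrial stress. It stood at 20.4 and 21.3 CPM in the DMSO libraries, 20.0 and 18.4 in those of GDC0068, and 19.7 and 18.0 in those of Degrader. The 4 drug libraries lay below DMSO, the highest of them by less than the drug libraries differ among themselves. Its log2 fold changes were -0.15 under Degrader (95% interval -0.35 to 0.06) and -0.12 under GDC0068 (-0.32 to 0.08), with edgeR adjusted p of 0.323 and 0.507. These ATF5 values were -0.080 under Degrader without Degrader replicate 2 and -0.069 under GDC0068 without GDC0068 replicate 2. NUP62 overlaps it on the other strand and had log2 fold changes of -0.08 and -0.18, not called (edgeR adjusted p of 0.297 and 0.0615). TRIB3 (ENSG00000101255, chromosome 20, 381034 to 397559, plus strand), a pseudokinase induced by ATF4 that feeds back on it, stood at 72.5 and 64.2 CPM in the DMSO libraries, 64.9 and 64.1 in those of GDC0068, and 63.8 and 59.8 in those of Degrader. DMSO replicate 1 stood above the other 5 libraries, which lay close together. The TRIB3 log2 fold change under Degrader was -0.15 (SE 0.0652, edgeR adjusted p = 0.156), called only with the block (edgeR adjusted p = 0.0184). When DMSO replicate 1 was left out it was -0.05. GDC0068 gave TRIB3 a value of -0.09 (edgeR adjusted p = 0.505).

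Of the effector enzymes, CHAC1 fell under Degrader and had the largest log2 fold change of the 9 genes there, and ASNS was called only with the block. CHAC1 (ENSG00000128965, chromosome 15, 40953471 to 40956512, plus strand), an enzyme that breaks down glutathione, stood at 5.66 and 7.09 CPM in the DMSO libraries, 6.57 and 4.77 in those of GDC0068, and 3.69 and 3.84 in those of Degrader. The Degrader libraries were close to each other and below the other 4, whereas the GDC0068 libraries lay on either side of the lower DMSO library. CHAC1 fell under Degrader by 0.75 on the log2 scale (SE 0.185, edgeR adjusted p = 0.0192), to 0.593 of the DMSO level. Under GDC0068 its value was -0.17 (95% interval -0.56 to 0.21, edgeR adjusted p = 0.631). Between libraries of the same number it was 0.21 for replicate 1 and -0.57 for replicate 2. CHAC1 had the fewest counts of the 9 genes (106 to 193 a library). The counting error of a single library at the mean count of its arm was 7.30% in DMSO and 9.58% under Degrader. The Degrader call was lost without DMSO replicate 2 (edgeR adjusted p = 0.110), Degrader replicate 1 (0.0806) or Degrader replicate 2 (0.104), with log2 fold changes of -0.59, -0.72 and -0.78.

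ASNS (ENSG00000070669, chromosome 7, 97852152 to 97872427, minus strand), which makes asparagine from aspartate and is a standard reporter of ATF4 activity, stood at 12.1 and 12.8 CPM in the DMSO libraries, 9.20 and 10.2 in those of GDC0068, and 9.26 and 10.7 in those of Degrader. All 4 drug libraries lay below DMSO, and those of the drugs overlapped. Neither the Degrader value of -0.32 (SE 0.114, edgeR adjusted p = 0.0791) nor the GDC0068 value of -0.36 (SE 0.114, edgeR adjusted p = 0.110), both log2 fold changes, was called. With the block both were, at -0.33 and -0.36 (edgeR adjusted p of 0.0146 and 0.0129).

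PPP1R15A was the only gene of the 9 in which all 4 drug libraries stood above both DMSO libraries. PPP1R15A (ENSG00000087074, chromosome 19, 48872421 to 48876058, plus strand) encodes GADD34, the stress-induced subunit that brings a phosphatase to eIF2 and so ends the response. It stood at 17.1 and 20.1 CPM in the DMSO libraries, 21.2 and 23.4 in those of GDC0068, and 22.0 and 21.3 in those of Degrader. The log2 fold change was 0.22 with Degrader (SE 0.101, edgeR adjusted p = 0.165) and 0.27 with GDC0068 (SE 0.101, edgeR adjusted p = 0.167), called only with the block (0.22 and 0.26, edgeR adjusted p of 0.0471 and 0.0307). Without DMSO replicate 1 they were 0.11 and 0.15.

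**Figure D1:**
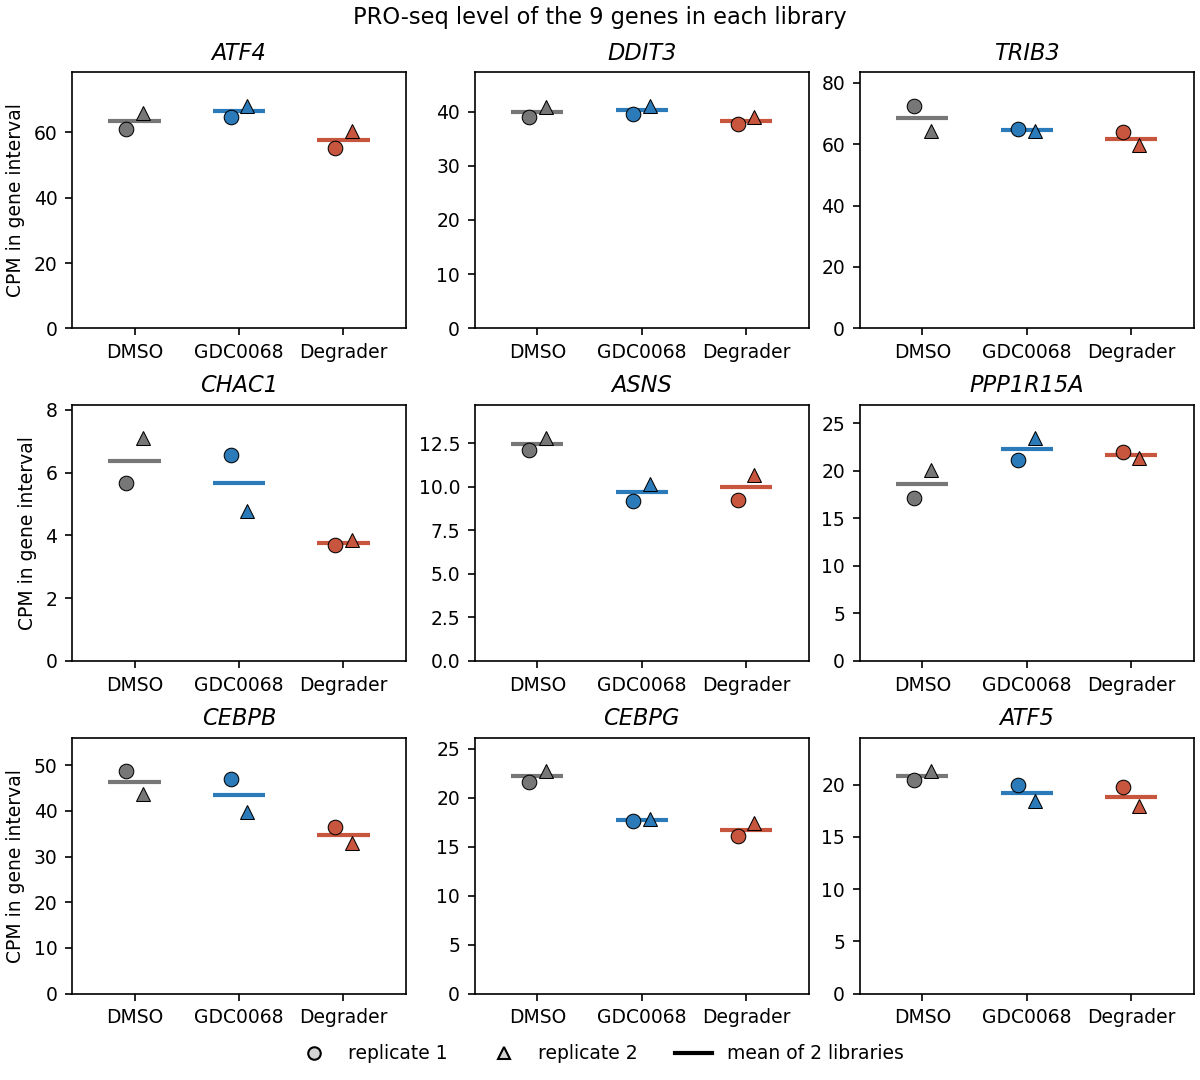
PRO-seq level of the 9 genes in CPM (vertical axes from 0, each with its own scale) in DMSO (grey), GDC0068 (blue) and Degrader (red), with circles for replicate 1, triangles for replicate 2 and a bar for the mean of the 2 libraries. ATF4, TRIB3, CHAC1, CEBPB and CEBPG are lowest in the 2 Degrader libraries. CEBPG, ASNS and ATF5 are lower in all 4 drug libraries than in DMSO, and PPP1R15A is higher in all 4. The DDIT3 libraries of DMSO overlap those of both drugs.

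Under Degrader, 3 regulators fell: CHAC1, CEBPB and CEBPG. Of the 9 genes, 8 had a log2 fold change below 0 under Degrader and the median was -0.15, where the median over all genes tested was -0.0014. The edgeR test called 3 of 9 lower and 0 higher, where 7.88% of all genes tested were called lower and 7.39% higher. With the replicate block it called 6 lower (ATF4, TRIB3, CHAC1, ASNS, CEBPB and CEBPG) and 1 higher (PPP1R15A), against 15.7% and 15.1% of all genes. Both Degrader libraries lay below both DMSO libraries in 7 of the 9 genes and above them in 1, against 29.2% and 29.3% of all genes. The count of calls fell to 1 when any single DMSO or Degrader library was left out.

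Under GDC0068 none of the 9 genes passed the test. The median log2 fold change was -0.10, with 6 of 9 below 0, where the median of all genes was 0.0099. The edgeR test called 0 of 9, and DESeq2 also called 0. By edgeR 3 of the 9 had an unadjusted p under 0.05 (CEBPG and ASNS lower, PPP1R15A higher), against 19.96% of all genes. Over all genes 1.88% were called lower and 1.70% higher. With the block 2 of 9 were called lower (ASNS and CEBPG) and 1 higher (PPP1R15A), against 8.91% and 8.87% of all genes. Both GDC0068 libraries lay below both DMSO libraries in 3 of the 9 (ASNS, CEBPG and ATF5) and above them in 1 (PPP1R15A), against 24.0% and 26.1% of all genes. The drug contrasts share their DMSO libraries, so likeness between them is not independent.

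The direct contrast asks whether AKT degradation and AKT inhibition differ for these genes at the doses used. CHAC1, CEBPB and ATF4 had the largest differences, each with a value below 0 for Degrader against GDC0068, and none was called without the block. The log2 difference of Degrader from GDC0068 was -0.32 for CEBPB (95% interval -0.51 to -0.13, edgeR adjusted p = 0.151), -0.58 for CHAC1 (-0.99 to -0.17, edgeR adjusted p = 0.208) and -0.20 for ATF4 (-0.34 to -0.06, edgeR adjusted p = 0.197). By edgeR 0 of the 9 were called and 3 had an unadjusted p under 0.05, against 14.12% of all genes. DESeq2 called 0 of 8 and gave no adjusted p for CHAC1. With the block these 3 were called lower, at -0.32, -0.58 and -0.20 (edgeR adjusted p of 5.99e-04, 0.0287 and 0.00508), and 0 higher. Leaving out 1 library moved all 3 values by over 1.5 times: CHAC1 to -0.34 and CEBPB to -0.20 without GDC0068 replicate 1, and ATF4 to -0.13 without Degrader replicate 1. Over all genes 0.151% were called lower and 0.116% higher, and 5.35% and 5.03% with the block. Both Degrader libraries lay below both GDC0068 libraries in 6 of the 9 genes, against 22.9% of all genes. For CEBPG (-0.08, 95% interval -0.28 to 0.12), ASNS (0.04, -0.22 to 0.29), PPP1R15A (-0.04, -0.26 to 0.17) and ATF5 (-0.03, -0.23 to 0.18) no difference was detectable at this depth. The intervals of all these genes still hold differences near the size of some drug effects.

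**Figure D2:**
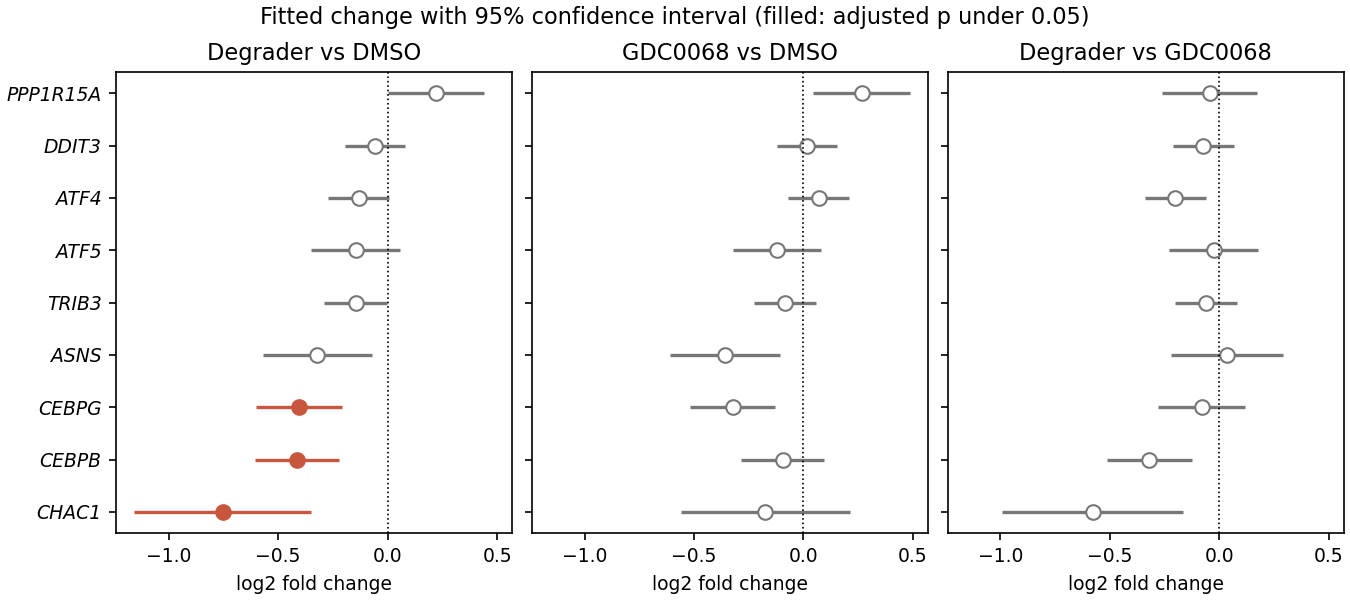
Log2 fold change of the 9 genes (points) with the 95% confidence interval of the edgeR fit (bars) in the 3 contrasts, filled where the adjusted p is under 0.05. CHAC1, CEBPB and CEBPG are called lower under Degrader, at -0.75, -0.42 and -0.40. No gene is called in the other 2 contrasts, and the interval of CHAC1 under GDC0068 is wide, from -0.56 to 0.21.

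Across the 9 genes, the level per kilobase of interval in DMSO was highest for ATF4 (29.8 ± 1.6 CPM per kb) and CEBPB (25.1 ± 1.9) and lowest for ASNS (0.615 ± 0.023). Between them lay DDIT3 (10.2 ± 0.35), PPP1R15A (5.11 ± 0.59), ATF5 (4.41 ± 0.13), TRIB3 (4.14 ± 0.36), CEBPG (2.48 ± 0.086) and CHAC1 (2.10 ± 0.33 CPM per kb). ATF5 and TRIB3 were the only neighbours in this order whose DMSO libraries overlapped. Whether whole intervals were counted is not given in the sources used here. ATF4 and CEBPB also have the shortest intervals of the 9 genes (2124 and 1839 bases), and ASNS the longest (20276). The part of interval length in this order was not tested. The order of the arm means was the same in all 3 arms. Under Degrader ATF4 stood at 27.2 ± 1.7 and CEBPB at 18.9 ± 1.3 CPM per kb.

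Over the 6 libraries, the log2 levels of the 36 pairs of genes correlated with a median r of 0.41, from -0.77 (TRIB3 and PPP1R15A) to 0.96 (ATF4 and DDIT3). CEBPG and ASNS had r = 0.93, and CHAC1 and CEBPB r = 0.85. These values rest on 6 libraries that share arms and replicate numbers and are descriptions. The genes whose profile lay closest to that of ATF4, by the root mean square difference of centred log2 CPM over the 6 libraries among 13896 other genes with at least 10 CPM, were MYL9 (0.019), INTS13 (0.022), MAPK8IP1 (0.024), FAM200B (0.026) and PPCS (0.026). CHAC1, with arm means from 3.77 to 6.38 CPM, lay below this level and was not compared. None of the regulators that were compared was among these 5. The SD of ATF4 itself over the libraries was 0.11 on the log2 scale.

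Other genes known to depend on ATF4 were called lower more often than higher under both drugs. The list held 48 genes of amino acid synthesis, transport and tRNA charging and of stress output, 46 of them tested. Under Degrader 20 of 46 fell, 3 rose and 23 were not called, with a median log2 fold change of -0.16. Over all genes tested 7.88% were called lower and 7.39% higher in this contrast, and 15.7% and 15.1% with the block, which called 24 of the 46 lower and 8 higher. The genes that fell were PSAT1, PHGDH, SHMT2, SLC7A1, ADM2, JDP2, XPOT, WARS1, GARS1, CARS1, AARS1, MARS1, IARS1, EIF4EBP1, CBS, GPT2, PCK2, PYCR1, ALDH18A1 and VEGFA, and those that rose were SLC38A2, ATF3 and BBC3. Under GDC0068 11 fell, 1 rose and 34 were not called, with a median of -0.11, where 1.88% of all genes were called lower and 1.70% higher. The block gave 21 lower and 5 higher, where it called 8.91% and 8.87% of all genes. Between the drugs, edgeR and DESeq2 called 0 genes of this list (11 had an unadjusted edgeR p under 0.05), and the block called 9 (7 lower under Degrader). For the eIF2, bZIP and IRE1 and ATF6 lists described next (21, 25 and 21 genes tested), both tools also called 0 between the drugs. In these lists 1, 8 and 6 genes had an unadjusted edgeR p under 0.05, and 1, 9 and 2 were called with the block. Over all genes tested, 14.12% had an unadjusted edgeR p under 0.05 between the drugs. Without the block edgeR called 0.151% of all genes lower and 0.116% higher, so the 0 calls in these lists are near that share. The block called 5.35% of all genes lower and 5.03% higher. Several members also answer to other factors, and VEGFA in particular to hypoxia signalling.

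The genes of this list with the smallest adjusted p encode enzymes and a growth factor. CBS, which starts the conversion of homocysteine to cysteine, stood at 20.4 ± 0.32 CPM in DMSO, 13.6 ± 0.022 under GDC0068 and 11.4 ± 0.59 under Degrader. That was a log2 fold change of -0.84 under Degrader and -0.58 under GDC0068 (edgeR adjusted p of 3.60e-04 and 0.00955). CBS has a near-identical copy in the GRCh38 reference assembly, so the assignment of its reads is uncertain. VEGFA, the angiogenic growth factor, stood at 70.0 ± 2.7, 47.4 ± 2.8 and 41.5 ± 0.65 CPM, a change of -0.75 and -0.56 (edgeR adjusted p of 8.29e-05 and 0.00182). GPT2, which links alanine and glutamate in mitochondria, changed by -0.58 under Degrader and -0.33 under GDC0068 (edgeR adjusted p of 4.01e-04 and 0.0225). MARS1 and IARS1, which charge the methionine and isoleucine tRNAs, changed by -0.54 and -0.35 under Degrader (edgeR adjusted p of 2.00e-04 and 0.00126) and by -0.35 and -0.31 under GDC0068 (0.00886 and 0.0101). The count for the list under Degrader was 12 without Degrader replicate 2, and under GDC0068 it was 1 without DMSO replicate 1, 4 without DMSO replicate 2, 5 without GDC0068 replicate 1 and 4 without GDC0068 replicate 2.

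Upstream of ATF4, the genes of all 3 eIF2 subunits fell under Degrader. Of the 21 genes of the eIF2 arm, all tested, 5 fell under Degrader, 1 rose and 15 were not called (median log2 fold change -0.08), where 7.88% of all genes were called lower and 7.39% higher. A single gene higher of 21 is below the share over all genes. None of the list, 0 of 21, was called under GDC0068 by edgeR and 1, lower, by DESeq2. Over all genes edgeR called 1.88% lower and 1.70% higher under GDC0068, so 0 of 21 is near that share. By edgeR 8 of the 21 had an unadjusted p under 0.05 there, against 19.96% of all genes. With the block the Degrader count was 9 lower and 2 higher (15.7% and 15.1% of all genes), and the GDC0068 count 6 lower and 1 higher (8.91% and 8.87%). The genes that fell were EIF2S1, EIF2S2 and EIF2S3, the eIF2 subunits, EIF2B2 of the exchange factor and GCN1, which activates the amino acid sensing kinase GCN2. EIF2S1 changed by -0.24, EIF2S3 by -0.22 and GCN1 by -0.25 (edgeR adjusted p of 0.00957, 0.0159 and 0.0133). EIF2AK1, the haem-regulated kinase, was the gene that rose, from 111 ± 0.92 to 129 ± 1.1 CPM (log2 fold change 0.21, edgeR adjusted p = 0.0147). The Degrader count was 0 without Degrader replicate 2, 1 without DMSO replicate 1 and 3 without DMSO replicate 2.

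In a list of other bZIP factors, drawn up as possible partners of ATF4 or C/EBP proteins, more were called higher than lower. Pairing was not tested, and members of the list differ in their known partners. ATF3 and JDP2 are also in the list of ATF4-dependent genes. Of 25 tested of 27 listed, 6 rose under Degrader, 2 fell and 17 were not called, with a median log2 fold change of 0.10. Over all genes 7.39% were called higher and 7.88% lower, so the 2 that fell are at the share over all genes. Under GDC0068 2 rose, FOS and DBP, and 23 were not called, with a median of 0.09, where 1.70% of all genes were called higher. Under GDC0068 this count was 0 without DMSO replicate 1, DMSO replicate 2 or GDC0068 replicate 1, and 1 without GDC0068 replicate 2 or Degrader replicate 2. With 1 library left out, the edgeR adjusted p reached 0.153 for FOS and 0.176 for DBP. FOS, an immediate-early gene, rose from 12.1 ± 0.85 CPM to 18.3 ± 1.1 under Degrader and 17.7 ± 1.1 under GDC0068 (log2 fold changes 0.60 and 0.55, edgeR adjusted p of 0.00292 and 0.0176). ATF3, itself induced by ATF4, had a log2 fold change of 0.28 with Degrader (called, edgeR adjusted p = 0.00528) and of 0.05 with GDC0068 (edgeR adjusted p = 0.655). The difference between the drugs of 0.23 was not called (edgeR adjusted p = 0.0961), but was with the block (3.42e-04 by edgeR). MAFF and DBP rose with Degrader by 0.45 and 0.30 (edgeR adjusted p of 0.00760 and 0.0201), while JDP2, a repressor of AP-1 sites, fell by 0.24 (edgeR adjusted p = 0.00752). With the block 12 were higher and 3 lower under Degrader (15.1% and 15.7% of all genes), and 7 higher and 1 lower under GDC0068 (8.87% and 8.91%). The Degrader count was 2 without DMSO replicate 1 or without Degrader replicate 2, and 4 without DMSO replicate 2.

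In the other arms of the unfolded protein response, run by IRE1 and ATF6, few genes were called. Of 21 genes, all tested, 3 fell under Degrader (SDF2L1, CRELD2 and HYOU1, which serve folding in the endoplasmic reticulum), 2 rose (MBTPS1 and ATF6B) and 16 were not called, with a median of -0.07. These counts are near the shares over all genes, 7.88% lower and 7.39% higher, and are no result about this list. CRELD2 went from 42.2 ± 0.33 to 31.8 ± 2.5 CPM (log2 fold change -0.41, edgeR adjusted p = 0.00701), SDF2L1 changed by -0.45 (edgeR adjusted p = 0.0282) and HYOU1 by -0.29 (edgeR adjusted p = 0.0109). MBTPS1, the protease that cuts ATF6, rose by 0.32 (edgeR adjusted p = 0.00760). Under GDC0068 1 gene was called, where 1.88% of all genes were called lower and 1.70% higher. That gene was DNAJB9, a target of IRE1 and XBP1, which was higher by 0.45 (edgeR adjusted p = 0.0455). DESeq2 (adjusted p = 0.0689) and the fit of only the 4 libraries compared (edgeR adjusted p = 0.0624) did not make this call. It was also lost with any 1 of the 6 libraries left out (edgeR adjusted p from 0.0567 to 0.223). The block called 5 lower and 6 higher under Degrader (15.7% and 15.1% of all genes), and 2 lower and 3 higher under GDC0068 (8.91% and 8.87%). The Degrader count was 1 without DMSO replicate 1 or without Degrader replicate 2, and 2 without Degrader replicate 1.

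**Figure D3:**
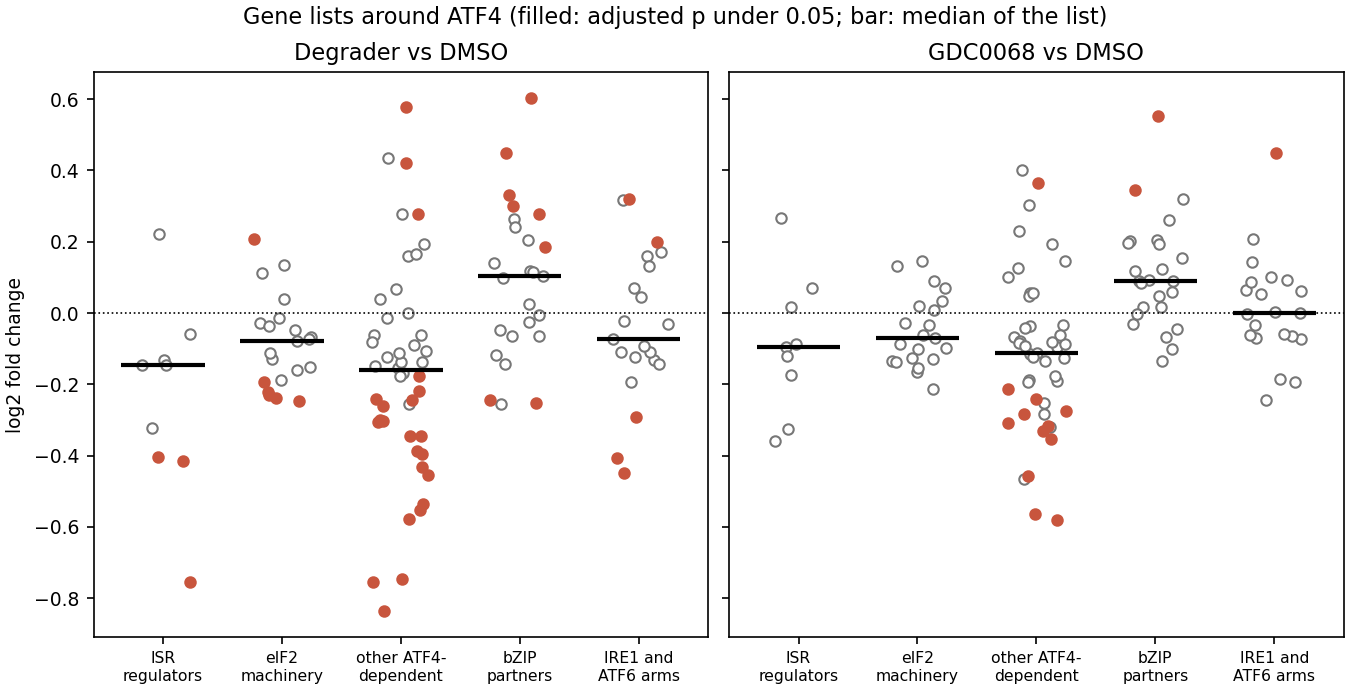
Log2 fold change of every tested gene in 5 groups (the 9 integrated stress response regulators and 4 lists) under Degrader and GDC0068, each point 1 gene, filled where the edgeR adjusted p is under 0.05, with a bar at the median of the group. The ATF4-dependent genes have most of their filled points below 0 (20 of 23 under Degrader, 11 of 12 under GDC0068). The factors listed as possible bZIP partners have most of theirs above 0 (6 of 8 and 2 of 2).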

How the data were processed

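PRO-seq counts of 6 T47D libraries were used. The authors deposited one table of raw counts, whole numbers with unequal totals, with a row for each gene interval. The submitters' processing notes name cutadapt 1.14, Bowtie 1.2.2, SAMtools 1.3.1, HISAT2 2.2.1 and limma, and the builds hg38, GRCh38 and dm3, without roles. The counting tool, the use of strand, duplicate removal and the use of a spike-in are not given in the sources used here. Coordinates are those of the table, with starts counted from 1. No spike-in factor was used, so a change common to all genes is removed by scaling.

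Libraries were assigned by the description and title in the labels. In R 4.3.3, edgeR 4.0.16 kept 19902 genes (filterByExpr, minimum count 10, minimum total 15), scaled by TMM (factors 0.997 to 1.003) and fitted a quasi-likelihood model with a term per arm, with 3 residual degrees of freedom. Every edgeR adjusted p comes from this fit over all genes unless a setting is named. The SE is the log2 fold change divided by the square root of F, and intervals are 95%. DESeq2 1.42.0 served as an alternative.

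Replicate numbers come from the labels, which do not say that libraries of the same number come from the same experiment. Across genes, the differences between replicates correlated between arms (r of 0.18 for DMSO and GDC0068, 0.22 for DMSO and Degrader, 0.20 for GDC0068 and Degrader), and the series states 2 independent experiments, so a fit with the replicate number as a block was set beside the main fit. Counting errors are those of a single library at the mean count of its arm, and cover counting only.

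The members and gene lists were chosen with earlier results of these data known. All members are named, and from each list up to 4 called genes with the smallest adjusted p in each contrast; other called genes of a list were named after their values were seen. Symbols were taken from the table. With 2 libraries per arm no permutation test can pass 0.05.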

Additional observations from a re-analysis of the deposited data

How the results depend on the processing

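Over 14 alternatives, the 27 member values (9 genes in 3 contrasts) kept their direction and their side of the threshold in 350 of 378 cases. In 8 a call was lost, each with a library left out, which leaves an arm with 1 library assumed to vary like the others. In 10 a call was gained, each with the replicate block. In 10 the sign turned, each in an uncalled value with a library left out. Under GDC0068, leaving out 1 library at a time gave DDIT3 log2 fold changes from -0.024 (without DMSO replicate 1; -0.023 without GDC0068 replicate 2) to 0.044, TRIB3 from -0.18 to 0.0020 (without DMSO replicate 1), CHAC1 from -0.41 to 0.040 and CEBPB from -0.22 to 0.013 (both highest without GDC0068 replicate 2). Between the drugs, ASNS ranged from -0.069 (without Degrader replicate 2; -0.032 without GDC0068 replicate 1) to 0.14, ATF5 from -0.089 to 0.041 (without Degrader replicate 2; 0.035 without GDC0068 replicate 1) and PPP1R15A from -0.11 to 0.042 (without GDC0068 replicate 2). The cause was not tested.

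The replicate block moved the members called from 3 to 7 under Degrader, from 0 to 3 under GDC0068 and from 0 to 3 between the drugs. It moved all genes called from 3039, 712 and 53 to 6114, 3540 and 2065, and all 3039, 712 and 53 were among the latter. Between the drugs, robust dispersion gave 116, DESeq2 141 and the fit of only the 4 libraries compared 23. The block moved the eIF2 list to 11, 7 and 1, the ATF4-dependent list to 32, 26 and 9, the bZIP list to 15, 8 and 9 and the IRE1 and ATF6 list to 11, 5 and 2. Under GDC0068 the eIF2 list had 1 call with robust dispersion and with DESeq2, and the IRE1 and ATF6 list 3 with robust dispersion and 0 with DESeq2 or only the 4 libraries compared. Alternatives for the lists were added after seeing the data.

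Leaving out 1 library at a time gave 1 to 3 members called under Degrader, and 0 in the other contrasts. All genes called ranged from 787 (without Degrader replicate 2) to 3218 under Degrader, from 37 (without DMSO replicate 1) to 557 under GDC0068, and from 3 (without Degrader replicate 2) to 51 between the drugs. List counts under Degrader ranged from 0 to 6 (eIF2), 12 to 23 (ATF4-dependent), 2 to 8 (bZIP) and 1 to 6 (IRE1 and ATF6). Under GDC0068 they ranged from 1 to 12 (ATF4-dependent), 0 to 2 (bZIP) and 0 to 0 (IRE1 and ATF6). Of 322 cases for named list genes, 274 kept direction and call and 48 lost the call, 46 of these with a library left out. CHAC1, at 106 to 193 counts, had the largest counting error of the members.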
